A study of Homo sapiens with 6 samples.

Results

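The genes described here are 10 transcriptional brakes and outputs of the ERK pathway. They are the phosphatases DUSP4, DUSP5 and DUSP6, the Sproutys SPRY1, SPRY2 and SPRY4, the Sprouty-related SPRED1 and SPRED2, and the ETS transcription factors ETV4 and ETV5. They were chosen by gene symbol with earlier results of these data known, so counts of calls among them only describe the list. All 10 were found among the 18678 genes of the expression table. Stranded mRNA libraries were compared between Cal27-shGRK2 and Cal27. Cal27 is an established cell line of human tongue squamous cell carcinoma, and Cal27-shGRK2 is that line with a short hairpin RNA against the receptor kinase GRK2. Both were grown in serum-supplemented medium and collected while subconfluent. The sources used here give neither the hairpin sequence, the number of clones, nor whether Cal27 carried a control hairpin. Titles name 3 libraries per group, but Cal27-shGRK2 replicates 0 and 1 hold the same value for every gene, so they were counted as 1 sample, called the shared library below, and each comparison is of 2 Cal27-shGRK2 libraries with 3 Cal27 libraries. Nothing in the labels ties the libraries to separate cultures, so p-values cover no more than the variation among these samples, and that variation may be technical.

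In the ERK pathway, growth factor receptors activate RAS, RAF kinases, MEK and finally the kinase ERK, which enters the nucleus and changes transcription. Several of the genes it induces switch the pathway off again. Dual-specificity phosphatases remove phosphate from ERK itself, in the nucleus (DUSP4, DUSP5) or in the cytoplasm (DUSP6). Sprouty and SPRED proteins act further up, between the receptors and RAF. ETV4 and ETV5 are factors of the PEA3 subfamily that carry part of the transcriptional output, and the repressor Capicua holds them down until ERK inactivates it. The levels of such genes are widely read as a record of ERK output in epithelial tumours. The labels give no measurement of ERK phosphorylation, and none was analysed here.

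In Cal27-shGRK2 cells 5 of the 10 genes rose, 1 fell and 4 did not pass the test. The nuclear phosphatases DUSP4 and DUSP5, the feedback inhibitor SPRY4 and the ETS factors ETV4 and ETV5 were each 1.49-fold to 2.02-fold higher by mean FPKM, whereas the cytoplasmic ERK phosphatase DUSP6 was 2.28-fold lower. SPRY1, SPRY2, SPRED1 and SPRED2 had smaller differences that did not pass. FPKM is the fragment number scaled by transcript length and library size. Each gene was tested on log2(FPKM + 1) with limma, in a fit of all 13377 genes averaging 1 FPKM or more, and called at a Benjamini-Hochberg adjusted p under 0.05. Across all genes tested, 29.6% were called, 15.0% higher and 14.6% lower. Calls with a log2 fold change of at least 0.5 in size made up 9.55% of genes tested, and all 6 called genes of this set were among them. All 10 passed the filter. The median log2 fold change of the 10 was 0.38, and over all genes tested it was -0.01. The balance of calls moved when each library was rescaled to a common total. On the deposited FPKM 50.7% of all calls were higher (2008 genes), and with a common total 65.0% (2927 genes higher, 1575 lower). The filter of 1 and the 1 added before the log2 were then applied to the rescaled values, and 14483 genes were tested.

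The upstream sequences of DUSP6 and SPRY4 are shown because these genes had the largest fall and the largest rise of the set. They are RefSeq promoter windows, from 250 bases before to 50 bases after an annotated start, on GRCh38.p14. Capitals mark the letters GGAA, the core that ETS factors such as ETV4 and ETV5 recognise, on either strand (TTCC on the strand shown). The DUSP6 window is chr12:89352452-89352751 on the minus strand, and the SPRY4 window is chr5:142324198-142324497 on the minus strand.
DUSP6: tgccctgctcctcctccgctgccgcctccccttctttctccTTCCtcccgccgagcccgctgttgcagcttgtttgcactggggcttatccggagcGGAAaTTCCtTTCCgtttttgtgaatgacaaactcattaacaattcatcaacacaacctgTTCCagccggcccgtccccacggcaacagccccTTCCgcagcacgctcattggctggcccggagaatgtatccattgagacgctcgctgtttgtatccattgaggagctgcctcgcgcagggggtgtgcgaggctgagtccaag
SPRY4: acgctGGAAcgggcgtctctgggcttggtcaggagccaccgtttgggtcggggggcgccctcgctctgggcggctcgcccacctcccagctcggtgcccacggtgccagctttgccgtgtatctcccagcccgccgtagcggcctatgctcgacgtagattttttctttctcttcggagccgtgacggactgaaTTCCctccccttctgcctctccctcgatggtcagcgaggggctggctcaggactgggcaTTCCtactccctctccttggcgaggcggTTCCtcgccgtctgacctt
The DUSP6 window held 6 GGAA cores and the SPRY4 window 4, where the median of all 35116 RefSeq windows was 3 and 95.5% held at least 1. Windows were found for 6 of the 10 genes, 10 windows in all, with 3 to 6 cores each. None of the 10 windows held the longer ETS site CCGGAAGT (4.14% of all windows), the Capicua octamers TGAATGAA or TGAATGGA (2.63%) or the cAMP element TGACGTCA (1.85%). An AP-1 site, TGANTCA, was in 1 SPRED2 window, against 7.71% of all windows. The shorter Capicua core TGAATG was in the DUSP6 window and in 1 SPRED2 window, and in 11.8% of all windows. Both strands were searched for each motif, the octamers that begin with TGAATG are counted again under that core, and CCGGAAGT contains GGAA. The cores GGAA and TGAATG were chosen after the windows had been read. These matches describe letters in a window, not occupancy, and GENCODE version 29 places the outermost start of DUSP6 770 bases and that of SPRY4 2208 bases upstream of the RefSeq start used here.

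Before the results, the hairpin target and the sample identity were checked. GRK2 (listed as ADRBK1) had 17.3 and 16.6 FPKM in the Cal27-shGRK2 libraries, against 55.3, 59.4 and 55.8 FPKM in the Cal27 libraries. Its log2 fold change was -1.69 ± 0.06 (n = 2 and 3, SE, limma adjusted p = 3.8e-11). Per library, 13269 to 13369 genes reached 1 FPKM, and sequencing depth is unknown because only FPKM were deposited. The 6 squamous epithelial markers checked, of which KRT5 was the most abundant, had a summed level of 1102 to 1126 FPKM in Cal27-shGRK2 libraries and 2751 to 3056 FPKM in Cal27 libraries. KRT14 was near 0 in Cal27-shGRK2, at 0.235 and 0.160 FPKM, against 19.3, 20.9 and 16.5 FPKM in Cal27. KRT5, KRT17 and TP63 were also lower in Cal27-shGRK2, and CDH1 and EPCAM were higher. Fibroblast markers (4 of 6 listed in the table) summed to 4.38 to 4.46 FPKM in Cal27-shGRK2 and 4.35 to 4.71 FPKM in Cal27. Blood and endothelial markers (2 of 6 listed, mostly CDH5) summed to 7.72 to 7.89 FPKM in Cal27-shGRK2 and 4.29 to 4.66 FPKM in Cal27. Melanocyte and neural markers (2 of 5 listed) summed to 2.62 to 2.65 FPKM in Cal27-shGRK2 and 1.74 to 1.86 FPKM in Cal27. The part of these marker differences in the results below was not tested. In bulk libraries a change in every cell and a change in the share of cells that express a gene cannot be told apart.

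DUSP5, a nuclear phosphatase selective for ERK, was the most abundant of the 10 genes in both lines. It lies on chromosome 10 from 110497838 to 110511544 on the plus strand (GENCODE version 29, GRCh38). Its FPKM was 42.9 and 43.7 in the Cal27-shGRK2 libraries, against 27.3, 26.4 and 24.1 in the Cal27 libraries. Every Cal27-shGRK2 value lay above every Cal27 value, and the means differed 1.67-fold. The log2 fold change was 0.72 ± 0.07 (n = 2 and 3, SE, limma adjusted p = 9.4e-07), larger than that of 94.4% of all genes tested in absolute size. DUSP4, a nuclear phosphatase that acts on ERK and on JNK, lies on chromosome 8 from 29333064 to 29350668 on the minus strand. It had 32.6 and 33.97 FPKM in Cal27-shGRK2, against 21.8, 22.6 and 21.4 FPKM in Cal27. The groups again did not overlap, with a 1.52-fold difference of means and a log2 fold change of 0.58 ± 0.06 (SE, limma adjusted p = 5.3e-06).

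DUSP6, the cytoplasmic phosphatase selective for ERK, went the other way. It lies on chromosome 12 from 89347232 to 89353271 on the minus strand. Its FPKM was 4.07 and 4.03 in the Cal27-shGRK2 libraries, against 8.71, 9.33 and 9.60 in the Cal27 libraries. The Cal27-shGRK2 libraries were almost equal and well under the lowest Cal27 value. The log2 fold change was -1.02 ± 0.08 (n = 2 and 3, SE, limma adjusted p = 1.4e-07), and only 1.45% of all genes tested had a lower one. Among the 1949 genes called lower it ranked 172nd by log2 fold change. Within each library, the ratio of DUSP5 to DUSP6 FPKM was 10.5 and 10.9 in Cal27-shGRK2, against 3.13, 2.83 and 2.52 in Cal27. The ratio of DUSP4 to DUSP6 was 8.001 and 8.44 in Cal27-shGRK2, against 2.50, 2.42 and 2.23 in Cal27. DUSP6 thus made up 5.12% and 4.92% of the summed FPKM of the 3 phosphatases in Cal27-shGRK2 libraries, against 15.1%, 16.01% and 17.4% in Cal27 libraries. The sum itself was higher, at 79.5 and 81.7 FPKM in Cal27-shGRK2, against 57.8, 58.2 and 55.1 FPKM in Cal27.

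An antisense gene overlaps DUSP6 on the plus strand, and no source used here states whether the authors' counting used strand. Its FPKM was 1.90 and 1.96 in Cal27-shGRK2, against 4.03, 4.21 and 3.64 in Cal27, a log2 fold change of -0.76 ± 0.09 (SE, limma adjusted p = 1.9e-05). Both were lower in Cal27-shGRK2, and without a known strand setting reads of DUSP6 and of its antisense partner cannot be told apart.

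**Figure D1:**
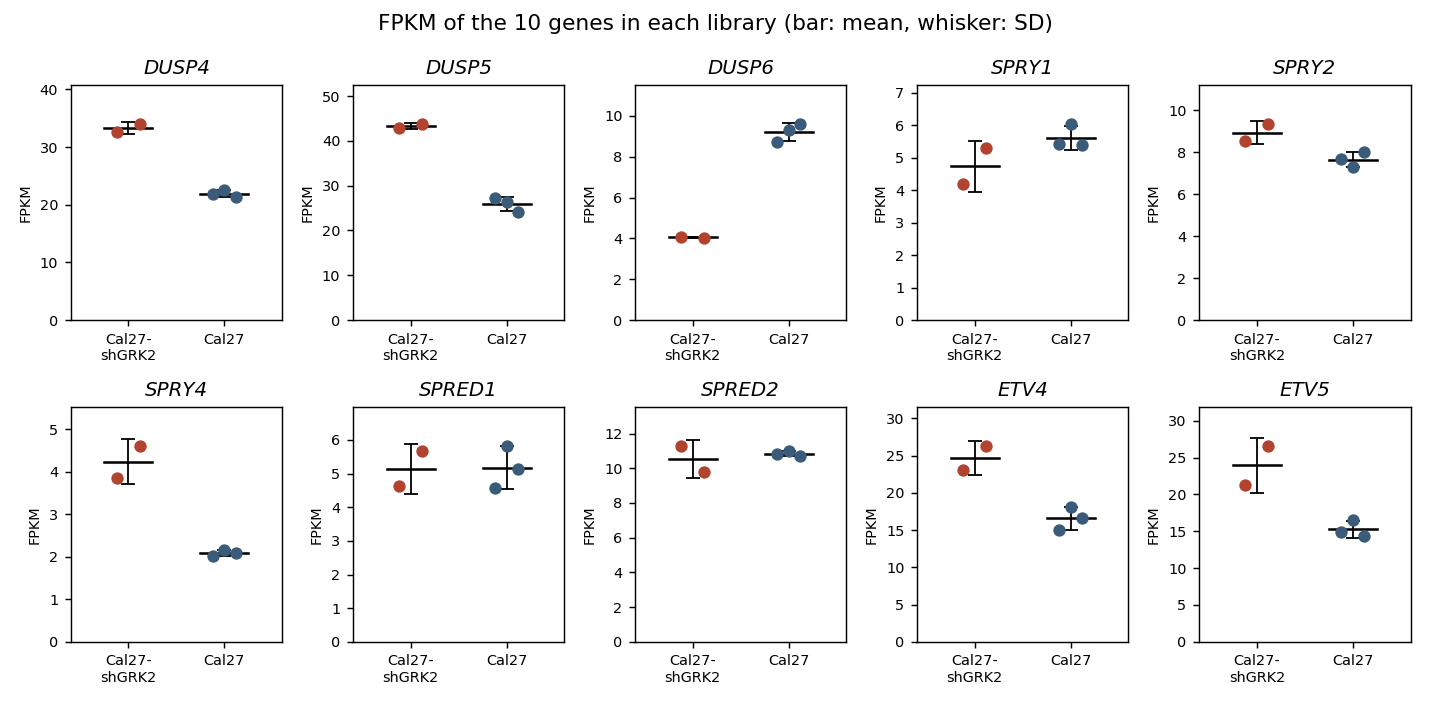
FPKM (vertical axis, from 0, a scale of its own per gene) of each of the 10 genes in the 2 Cal27-shGRK2 libraries (left in each panel) and the 3 Cal27 libraries (right), with bars at the mean and whiskers for the SD. The groups are apart for DUSP4, DUSP5, SPRY4, ETV4 and ETV5 (higher in Cal27-shGRK2) and for DUSP6 (4.07 and 4.03 FPKM in Cal27-shGRK2, against 8.71 to 9.60 FPKM in Cal27), and they are apart by less for SPRY2 (higher) and SPRY1 (lower), which did not pass the test, and overlap for SPRED1 and SPRED2.

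Of the Sproutys, membrane-associated inhibitors of receptor tyrosine kinase signalling, SPRY4 was the 1 that rose. SPRY4 lies on chromosome 5 from 142310427 to 142326455 on the minus strand. It was the least abundant of the 10 genes in Cal27. Its FPKM was 3.86 and 4.61 in Cal27-shGRK2, against 2.03, 2.16 and 2.097 in Cal27. The groups did not overlap and the means differed 2.02-fold. The log2 fold change was 0.75 ± 0.10 (n = 2 and 3, SE, limma adjusted p = 2.8e-05), on a scale that understates the change of a gene at this level. With a pseudocount of 0.1 it was 0.98. The authors' table gives SPRY4 a locus of 388 kb that also holds FGF1, and its antisense gene, listed as AC005592.2, had 1.67 and 0.489 FPKM in Cal27-shGRK2, against 0.719, 0.589 and 0.656 FPKM in Cal27. FGF1, a growth factor gene on the same strand, had 3.49 and 4.15 FPKM in Cal27-shGRK2, against 3.06, 2.88 and 2.97 FPKM in Cal27 (log2 fold change 0.28, limma adjusted p = 0.041). As for DUSP6, reads of SPRY4 and of its antisense gene cannot be told apart without a known strand setting.

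SPRY2, the most abundant Sprouty in both lines, lies on chromosome 13 from 80335976 to 80340951 on the minus strand. It had 8.53 and 9.33 FPKM in Cal27-shGRK2, against 7.65, 7.29 and 7.996 FPKM in Cal27. The groups did not overlap, but the difference of 0.20 ± 0.08 in log2 (SE, n = 2 and 3) did not pass (limma adjusted p = 0.074). Its call depended on scaling, since it passed under median-of-ratios scaling (adjusted p = 0.049) and with a common total per library (adjusted p = 0.030). SPRY1, on chromosome 4 from 123396795 to 123403760 on the plus strand, had 4.18 and 5.28 FPKM in Cal27-shGRK2, against 5.41, 6.03 and 5.38 FPKM in Cal27. Its groups did not overlap by a narrow margin, and its log2 fold change of -0.21 ± 0.10 (SE, n = 2 and 3) did not pass (limma adjusted p = 0.12). Without Cal27-shGRK2 replicate 2 it passed, at -0.35 (adjusted p = 0.047), so the call rests on which library stands for the group. Of the 10 genes, 8 had groups that were fully apart, 6 of them higher and 2 lower in Cal27-shGRK2. Such separation was common over all genes tested, at 53.3%, with 25.9% higher and 27.4% lower.

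The summed Sprouty level was 16.6 and 19.2 FPKM in Cal27-shGRK2, against 15.1, 15.5 and 15.5 FPKM in Cal27. SPRY4 supplied 23.3% and 24.0% of it in Cal27-shGRK2, against 13.5%, 14.0% and 13.5% in Cal27. SPRY2 supplied 51.5% and 48.5% in Cal27-shGRK2, against 50.7%, 47.1% and 51.7% in Cal27. The share of SPRY1 was 25.2% and 27.5% in Cal27-shGRK2, against 35.9%, 38.9% and 34.8% in Cal27.

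The SPRED genes encode membrane adaptors that bring neurofibromin, a RAS inactivator, to RAS. SPRED1, on chromosome 15 from 38252326 to 38357249 on the plus strand, had 4.62 and 5.67 FPKM in Cal27-shGRK2, against 4.56, 5.82 and 5.14 FPKM in Cal27. Its log2 fold change was -0.01 ± 0.10 (n = 2 and 3, SE, limma adjusted p = 0.97). SPRED2, on chromosome 2 from 65310851 to 65432637 on the minus strand, had 11.3 and 9.77 FPKM in Cal27-shGRK2, against 10.8, 11.02 and 10.7 FPKM in Cal27. Its log2 fold change was -0.04 ± 0.08 (n = 2 and 3, SE, limma adjusted p = 0.73). For both genes the Cal27-shGRK2 libraries lay on either side of the Cal27 mean, and the 2 groups overlapped. SPRED3, the remaining family member, lay under the filter, at 0.349 and 0.313 FPKM in Cal27-shGRK2 and 0.0491 to 0.194 FPKM in Cal27.

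Both ETS factors of the set rose, and by similar amounts. ETV4, on chromosome 17 from 43527844 to 43579620 on the minus strand, had 23.1 and 26.3 FPKM in Cal27-shGRK2, against 15.0, 18.03 and 16.6 FPKM in Cal27. Every Cal27-shGRK2 value was above every Cal27 value, with a 1.49-fold difference of means and a log2 fold change of 0.55 ± 0.08 (n = 2 and 3, SE, limma adjusted p = 1.3e-04). ETV5, on chromosome 3 from 186046308 to 186110318 on the minus strand, had 21.3 and 26.6 FPKM in Cal27-shGRK2, against 14.9, 16.5 and 14.3 FPKM in Cal27. The means differed 1.57-fold, with a log2 fold change of 0.61 ± 0.09 (n = 2 and 3, SE, limma adjusted p = 2.7e-04). Replicate 2 was the higher of the Cal27-shGRK2 libraries for both factors. Without that replicate the ETV5 log2 fold change was 0.45, and without the shared library it was 0.76. The ratio of ETV4 to ETV5 stayed near 1, at 1.09 and 0.989 in Cal27-shGRK2, against 1.005, 1.09 and 1.16 in Cal27. Each factor overlaps another gene in the annotation. DHX8, a helicase gene on the opposite strand to ETV4, had 20.5 and 22.0 FPKM in Cal27-shGRK2, against 23.6, 23.7 and 22.8 FPKM in Cal27. Its log2 fold change was -0.13 (limma adjusted p = 0.16). DGKG, a lipid kinase gene on the strand of ETV5, had 0.04 (limma adjusted p = 0.78). An antisense gene, ETV5-AS1, also overlaps ETV5 and has no FPKM here. Without a known strand setting, reads of ETV4 and ETV5 cannot be told apart from those of opposite-strand genes where they overlap.

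**Figure D2:**
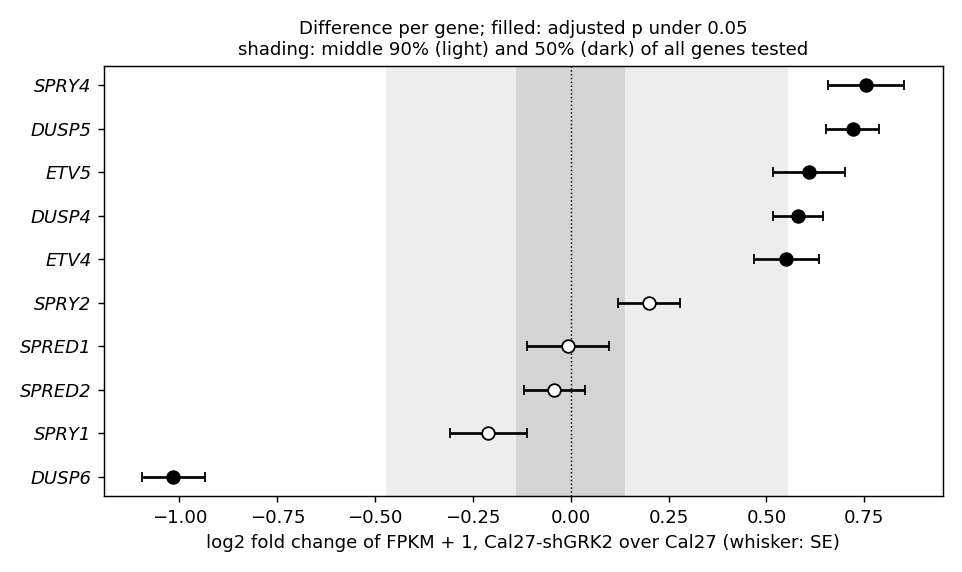
Log2 fold change of FPKM + 1, Cal27-shGRK2 over Cal27 (horizontal axis), with its SE for each of the 10 genes, ordered from highest to lowest, with filled points for an adjusted p under 0.05 and shading for the middle 90% and 50% of all genes tested. SPRY4 (0.75), DUSP5 (0.72), ETV5 (0.61) and DUSP4 (0.58) lie to the right of the light shading, ETV4 (0.55) at its edge, and DUSP6 (-1.02) far to its left.

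The order of the 10 genes by mean FPKM began alike in both lines. In Cal27-shGRK2 it was DUSP5, DUSP4, ETV4, ETV5, SPRED2, SPRY2, SPRED1, SPRY1, SPRY4 and DUSP6. The last 4 formed a run in which each neighbour overlapped the next, at means of 5.15 to 4.05 FPKM, and ETV4 and ETV5 also overlapped. In Cal27 the order was DUSP5, DUSP4, ETV4, ETV5, SPRED2, DUSP6, SPRY2, SPRY1, SPRED1 and SPRY4. ETV4 overlapped ETV5 there, and SPRY1 overlapped SPRED1. DUSP6 was thus in 10th place in Cal27-shGRK2 and in 6th place in Cal27, while SPRY4 was in 9th place in Cal27-shGRK2 and in 10th place in Cal27.

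The authors' deposited table marks the same 6 genes as significant. In the authors' deposited table the log2 fold changes of Cal27-shGRK2 over Cal27 are -1.10 for DUSP6, 1.02 for SPRY4, 0.76 for DUSP5 and 0.62 for DUSP4, each with q = 6.1e-04. ETV5 has 0.63 (q = 0.023) and ETV4 0.59 (q = 0.012) in the authors' deposited table. That table does not mark SPRY2 (0.20, q = 0.20), SPRY1 (-0.19, q = 0.49), SPRED2 (-0.06, q = 0.98) or SPRED1 (-0.02, q = 0.99). The authors' deposited values come from the same series and are no independent check. They do not rest on exactly the libraries compared here. For Cal27 the condition FPKM equalled the mean of the library values in 100% of genes at 1 FPKM or more (relative tolerance 0.001). For Cal27-shGRK2 the condition FPKM of DUSP6 was 4.31, above both distinct libraries (4.07 and 4.03), so it is not their mean.

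The other phosphatases that act on MAP kinases were listed alongside. Of the 7, 1 rose, 4 fell and 2 missed the threshold, so 71.4% were called, against 29.6% of all genes tested (15.0% higher, 14.6% lower). The median log2 fold change was -0.23. DUSP7 and DUSP9, which with DUSP6 form the cytoplasmic ERK-selective subfamily, both fell. DUSP9 had 2.29 and 2.77 FPKM in Cal27-shGRK2, against 5.05, 4.77 and 5.60 FPKM in Cal27 (log2 fold change -0.80 ± 0.10, SE, limma adjusted p = 1.6e-05). DUSP7 had 15.2 and 15.4 FPKM in Cal27-shGRK2, against 22.4, 23.9 and 22.3 FPKM in Cal27 (-0.55 ± 0.07, SE, limma adjusted p = 1.5e-05). All 3 members of that subfamily were called lower, as were 14.6% of all genes tested. Their summed level was 21.5 and 22.2 FPKM in Cal27-shGRK2, against 36.2, 37.96 and 37.5 FPKM in Cal27.

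The nuclear subfamily was split. DUSP1, an early stress- and growth factor-induced phosphatase, had 2.26 and 2.11 FPKM in Cal27-shGRK2, against 3.29, 3.82 and 3.50 FPKM in Cal27 (log2 fold change -0.51 ± 0.10, SE, limma adjusted p = 8.2e-04). DUSP2, best known from immune cells, fell by 0.23 on the log2 scale (limma adjusted p = 0.047). DUSP2 missed the threshold whichever library was left out. The adjusted p was 0.13 without the shared library and 0.19 without Cal27-shGRK2 replicate 2, and 0.13, 0.078 and 0.053 without Cal27 replicate 0, 1 and 2 in turn. With DUSP4 and DUSP5 higher, the summed level of the 4 nuclear phosphatases was 82.5 and 84.5 FPKM in Cal27-shGRK2, against 58.4, 58.6 and 54.5 FPKM in Cal27. Among the phosphatases that prefer JNK and p38, DUSP10 rose by 0.21 (limma adjusted p = 0.018), a call lost without Cal27 replicate 0 (0.068) and without the shared library (0.11) or Cal27-shGRK2 replicate 2 (0.082). DUSP8 (0.22) and DUSP16 (-0.16) did not pass. The grouping by subfamily was made after the values were seen.

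**Figure D3:**
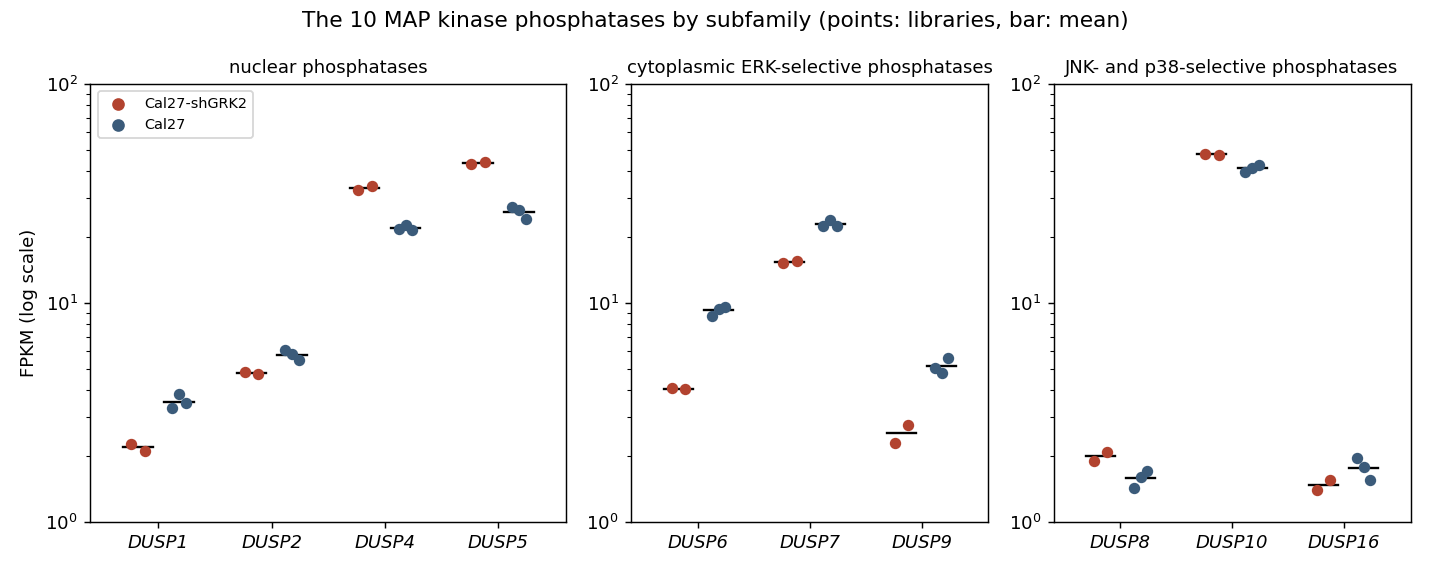
FPKM on a log axis of the 10 MAP kinase phosphatases in the 2 Cal27-shGRK2 libraries (left of each pair) and the 3 Cal27 libraries (right of each pair), with bars at the mean and a panel per subfamily. DUSP6, DUSP7 and DUSP9 are lower in Cal27-shGRK2, DUSP4 and DUSP5 are higher, and DUSP1 and DUSP2 are lower.

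Among 26 other ETS factors, 19 were in the table and 17 reached the filter, of which 4 rose, 3 fell and 10 did not pass (median log2 fold change -0.05). The share called was 41.2%, against 29.6% of all genes tested. ETV1, ETV2 and ETV7 are in these counts but passed the filter only through the group where each was higher, so a difference was built into their selection. ETV2, which was not called, averaged 0.919 FPKM in Cal27-shGRK2 and 1.41 FPKM in Cal27. The FPKM of ETV1, the remaining PEA3 factor, was 1.90 and 1.41 in Cal27-shGRK2, against 0.595, 0.482 and 0.764 in Cal27 (log2 fold change 0.72 ± 0.12, SE, limma adjusted p = 3.7e-04). With a pseudocount of 0.1 it was 1.31, and without either Cal27-shGRK2 library ETV1 was under the filter and not tested. ETS1, a factor that ERK phosphorylates, had 12.9 and 14.0 FPKM in Cal27-shGRK2, against 5.09, 6.45 and 5.28 FPKM in Cal27 (1.13 ± 0.09, SE, limma adjusted p = 2.2e-07). ELK3, a partner of serum response factor, rose by 0.57 (limma adjusted p = 1.7e-05). ETS2 rose by 0.21 (limma adjusted p = 0.016), a call lost without Cal27 replicate 0 (0.054) or 2 (0.050) and without the shared library (0.076) or Cal27-shGRK2 replicate 2 (0.10). The epithelial factor ELF3 had 15.0 and 15.1 FPKM in Cal27-shGRK2, against 25.6, 27.2 and 29.1 FPKM in Cal27, and fell by 0.82 on the log2 scale. ETV7, an ETS repressor induced by interferon, had 0.828 and 0.873 FPKM in Cal27-shGRK2, against 1.73, 1.66 and 1.55 FPKM in Cal27 (log2 fold change -0.52, limma adjusted p = 0.0014, and -0.88 with a pseudocount of 0.1). ERF, a repressor that ERK exports from the nucleus, fell by 0.32 (limma adjusted p = 0.0072), a call lost without the shared library (0.13).

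In the core cascade the share of called genes was 23.8%, against 29.6% of all genes tested. Of 21 genes from receptor adaptors to ERK and its RSK kinases, 4 rose, 1 fell and 16 missed the threshold. The median log2 fold change was 0.06. RPS6KA2, an ERK-activated RSK kinase, had 14.8 and 14.8 FPKM in Cal27-shGRK2, against 6.33, 7.50 and 6.96 FPKM in Cal27 (log2 fold change 0.998 ± 0.08, SE, limma adjusted p = 1.8e-07). The scaffold KSR1 rose by 0.73 (limma adjusted p = 3.0e-05) and MAP2K1, which encodes MEK, by 0.37 (limma adjusted p = 5.0e-04). MAPK3, an ERK gene, rose by 0.28 (limma adjusted p = 0.016), a call lost without the shared library (0.16) or Cal27-shGRK2 replicate 2 (0.056). HRAS had 61.5 and 65.1 FPKM in Cal27-shGRK2, against 88.0, 93.9 and 89.1 FPKM in Cal27, and fell by 0.51 on the log2 scale (limma adjusted p = 1.5e-05). NRAS (0.03) and BRAF (-0.07) did not pass.

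Of 14 other inhibitors of RAS and ERK signalling, 10 were tested, and 3 rose, 1 fell and 6 did not pass (median log2 fold change 0.09). The share called was 40.0%, against 29.6% of all genes tested. RASA1, a RAS GTPase-activating protein, had 30.3 and 33.2 FPKM in Cal27-shGRK2, against 15.7, 15.7 and 15.6 FPKM in Cal27 (0.97 ± 0.07, SE, limma adjusted p = 3.6e-08). Its relative DAB2IP had 6.54 and 7.44 FPKM in Cal27-shGRK2, against 12.3, 13.5 and 12.5 FPKM in Cal27, and fell by 0.78 on the log2 scale (limma adjusted p = 2.2e-06). ERRFI1, a feedback inhibitor of EGFR, rose by 0.30 (limma adjusted p = 0.0045), a call lost without Cal27-shGRK2 replicate 2 (0.10). RASA2 rose by 0.25 (limma adjusted p = 0.039), a call lost without Cal27 replicate 0 (0.088) or 1 (0.083) and without the shared library (0.059) or Cal27-shGRK2 replicate 2 (0.29). IL17RD, a membrane inhibitor known as SEF, lay under the filter at 0.645 and 1.02 FPKM in Cal27-shGRK2 and 0.259 to 0.343 FPKM in Cal27.

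Among other genes used as readouts of ERK output, CCND1, which encodes the cell cycle regulator cyclin D1, had 273 FPKM in both Cal27-shGRK2 libraries, against 166, 184 and 165 FPKM in Cal27 (log2 fold change 0.67 ± 0.06, SE, limma adjusted p = 9.9e-07). PHLDA1 (0.18, limma adjusted p = 0.053) and EPHA2 (0.08, limma adjusted p = 0.57) did not pass, and EPHA4 lay under the filter. In all, 1 of 3 tested genes of that list rose, so 33.3% were called, against 29.6% of all genes tested (15.0% higher). In the Capicua complex 1 of 3 tested genes was called, and it was lower (33.3% called, against 29.6% of all genes tested). CIC itself (log2 fold change -0.20, limma adjusted p = 0.10) and its partner gene ATXN1 (0.02) did not pass. The related partner ATXN1L fell by 0.24 (limma adjusted p = 0.034), a call lost without Cal27 replicate 1 (0.079) or 2 (0.094) and without the shared library (0.20) or Cal27-shGRK2 replicate 2 (0.090). Over all of these pathway lists, 23 of 61 tested genes were called, 13 higher and 10 lower (37.7%, against 29.6% of all genes tested). These calls include ETV1 and ETV7, which passed the filter only through the group where each was higher. With a common total per library 21 genes of the lists were higher. Over all genes, 2927 of the 14483 tested were higher at that setting, against 2008 of 13377 on the deposited FPKM.

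**Figure D4:**
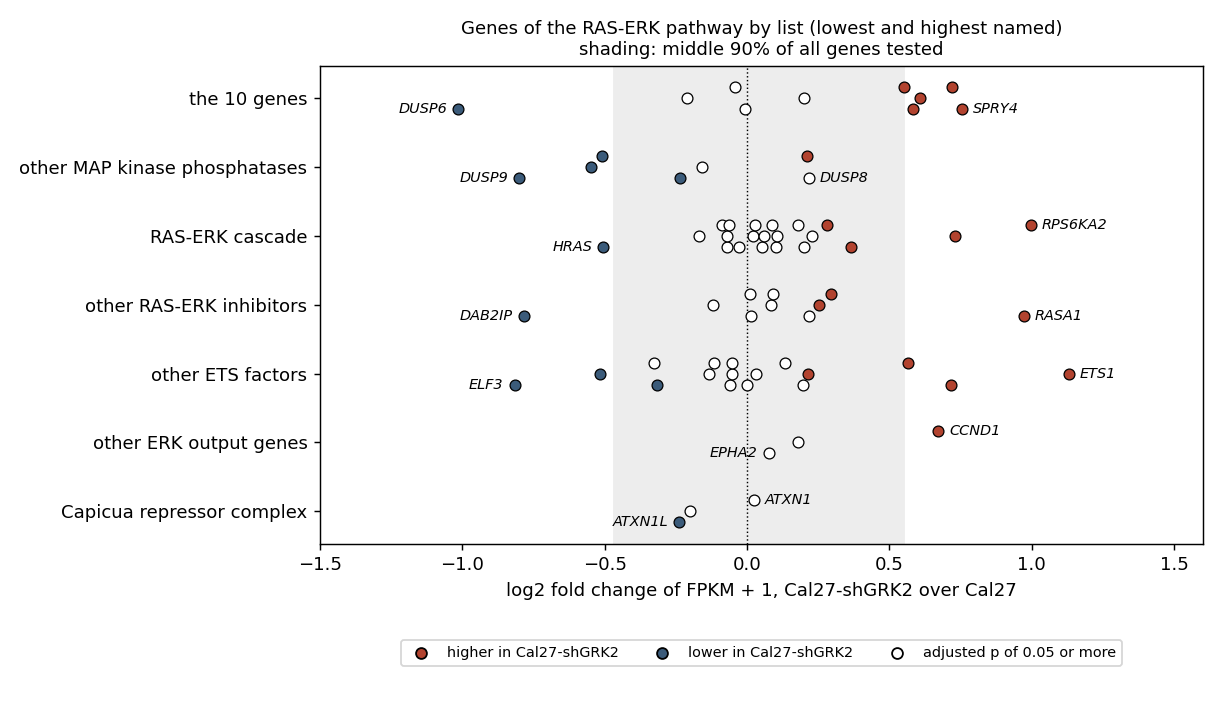
Log2 fold change of FPKM + 1, Cal27-shGRK2 over Cal27 (horizontal axis), of each tested gene of the set of 10 and of the 6 pathway lists (rows), with red for called higher, blue for called lower, white for not passed, and shading for the middle 90% of all genes tested. Called genes lie on both sides of 0 in the set of 10 and in the phosphatase, cascade, inhibitor and ETS lists, from DUSP6 (-1.02) to ETS1 (1.13).

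The genes most like the extremes of the set were found by comparing the 5 log2 values of each gene, centred on the Cal27 mean, among genes averaging 5 FPKM or more. Nearest to SPRY4 were FUT3 (summed absolute difference 0.07), MAP3K1 (0.16) and PLGRKT (0.17), with log2 fold changes of 0.73, 0.70 and 0.75. Nearest to DUSP6 were ARTN (0.18), STARD3NL (0.19) and FST (0.20), with log2 fold changes of -0.98, -1.03 and -0.99. FST, which encodes the secreted activin antagonist follistatin, had 97.1 and 94.8 FPKM in Cal27-shGRK2, against 188, 196 and 189 FPKM in Cal27. With 5 libraries this likeness describes the size of the group difference and little else.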

How the data were processed

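Stranded mRNA libraries of Cal27-shGRK2 and Cal27 cells were analysed from 1 table of the whole series. The submitters' processing notes name hg38 and the tools Cuffdiff 2.2.1, TopHat2 2.1.0 and Bowtie2 2.2.6. The role of each, the annotation and the strand setting are not stated there. Per the file headers, the deposited table gives FPKM for each library and each condition. For the authors' comparison it adds their log2 fold change, a score (the test statistic), a p-value and a q-value. FPKM of 0.0001 or less were read as 0.

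Symbols, lists and subfamilies were chosen with earlier results of these data known. Cal27-shGRK2 replicates 0 and 1 were identical and counted once. The fit took log2(FPKM + 1) of the 13377 genes averaging 1 FPKM or more, in limma 3.58.1 under R 4.3.3 with trend and robust settings. It left 3 residual degrees of freedom for each gene. Tests were two-sided, adjusted by Benjamini-Hochberg over every gene fitted. The script was tested on simulated data. Named beside the 10 genes are GRK2, up to 4 called genes per direction of each pathway list, and the 3 genes most like each extreme. Genes of these lists that did not pass, and overlapping genes, were named after their values were seen. Gene positions are from GENCODE version 29. Alternatives were another pseudocount, 2 other filters, 3 scalings, limma without trend, a replicate block, each library left out, and an additional Cal27-shGRK2 library derived from the authors' condition value. FPKM hold no depth, so no counting interval is given. Some genes of the pathway lists are counted but not reported by name here.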

Additional observations from a re-analysis of the deposited data

How the results depend on the processing

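The 6 calls (DUSP4, DUSP5, DUSP6, SPRY4, ETV4 and ETV5) and that of GRK2 kept their direction and their side of the threshold in all alternatives run, with SPRY4 not tested where the mean had to reach 5 FPKM. The DUSP6 log2 fold change ranged from -1.17 to -0.95 and that of SPRY4 from 0.65 to 0.98. SPRY2 passed with median-of-ratios size factors (0.21) and with a common total per library (0.26), and the SPRY1 log2 fold change ranged from -0.35 to -0.071 when libraries were left out. Genes called lower among the 10 numbered 1 to 2 when libraries were left out. Pathway list genes called then numbered 15 to 24, with 7 to 16 higher, and rescaling to a common total gave 21 higher. Over all genes, leaving out a library gave 2600 (without the shared Cal27-shGRK2 library) to 4028 calls, against 3957. Of them 1218 (without Cal27-shGRK2 replicate 2) to 2205 were higher and 1088 (without the shared library) to 1843 lower. The cause of these shifts was not tested. The replicate block (numbers shared by title only) called 3960 genes with the shared column as replicate 0 and 3481 as replicate 1, against 3957 without it, and 6 of the 10 genes either way. The numbers were not treated as pairs, since only the titles share them. Deviations of same-numbered libraries correlated at 0.080, -0.071 and 0.017. With 2 distinct Cal27-shGRK2 libraries the deviations of 1 mirror those of the other, so these correlations cannot settle whether libraries were paired. With the additional Cal27-shGRK2 library, whose DUSP6 value was 4.83 FPKM, 6 of the 10 were again called. Over all genes, 4782 of the 13383 tested were called in that fit, against 3957 without that library. Depth is unknown, which limits what can be said of genes near 1 FPKM.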
